A study of Oryza sativa Indica Group with 12 samples.

Results

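H3K4me3 hub anchors were the anchors of the H3K4me3 chromatin loops that were joined to 5 or more other anchors. An anchor is a stretch of chromatin at one end of a loop, and a loop is a pair of anchors linked by paired-end tags (PETs), which are sequenced ligation products whose ends come from both anchors. Members were thus chosen by their number of H3K4me3 loops, a measured value. Within each of the 2 rice varieties, intervals sharing 1 bp or more were merged to a single anchor, and the partners of an anchor were the distinct other anchors linked to it by a loop spanning at most 1 Mb between anchor midpoints. In Minghui 63 (MH63) 327 of 10855 anchors were hubs by this rule, or 3.01% (Wilson 95% interval 2.71 to 3.35%). In Zhenshan 97 (ZS97) 711 of 11960 anchors were hubs, or 5.94% (5.54 to 6.38%). The comparison set throughout was the anchors with 1 to 4 partners, 10452 in MH63 and 11207 in ZS97. A further 76 anchors in MH63 and 42 in ZS97 had only loops longer than 1 Mb and belonged to neither set.

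The study profiled young leaves of 2-week-old seedlings of both varieties, which are the parents of a widely grown hybrid rice, by chromatin interaction analysis with paired-end tags (ChIA-PET). Libraries were made with antibodies against H3K4me3, RNA polymerase II (RNAPII) and H3K9me2, with 2 replicates for each antibody and variety, 12 libraries in all. The loop lists used here pool both replicates, so each variety has 1 list per antibody, no spread between replicates can be given and no difference below was tested. Intervals cover counting error over anchors or loops only, and neighbouring anchors are not independent of each other.

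H3K4me3, trimethylation of lysine 4 of histone H3, marks the starts of genes that are transcribed or poised to be. Loops called between H3K4me3 sites in leaves therefore mostly join promoter regions. RNAPII is the enzyme that transcribes protein-coding genes, and its ChIA-PET loops join places where the polymerase is bound. H3K9me2 marks silent chromatin rich in transposable elements, which in rice is most abundant around the centromeres. An anchor with many partners is often called a hub because it connects several such regions at once.

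The number of partners fell off steeply above the threshold. In MH63, 178 hubs had 5 partners, 95 had 6, 31 had 7, 14 had 8, 5 had 9 and 2 had 10, and single hubs had 13 and 14. In ZS97, 384 hubs had 5 partners, 181 had 6, 70 had 7, 39 had 8, 15 had 9, 11 had 10, 7 had 11 and 2 had 12, and single hubs had 14 and 19. The median hub thus had 5 partners in both varieties, and hubs with 10 or more were a small minority. The MH63 list held 9540 loops within 1 Mb and the ZS97 list 12199. Both lists began at 4 PETs per loop and their PET counts are not scaled to depth, so the higher number of hubs in ZS97 cannot be told apart from a difference between the libraries. The library table of the study lists fewer uniquely mapped PETs for the pooled H3K4me3 data of ZS97 than of MH63. The part of depth was not tested. With loops of at least 5 PETs only, 88 hubs were left in MH63 and 234 in ZS97.

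**Figure D1:**
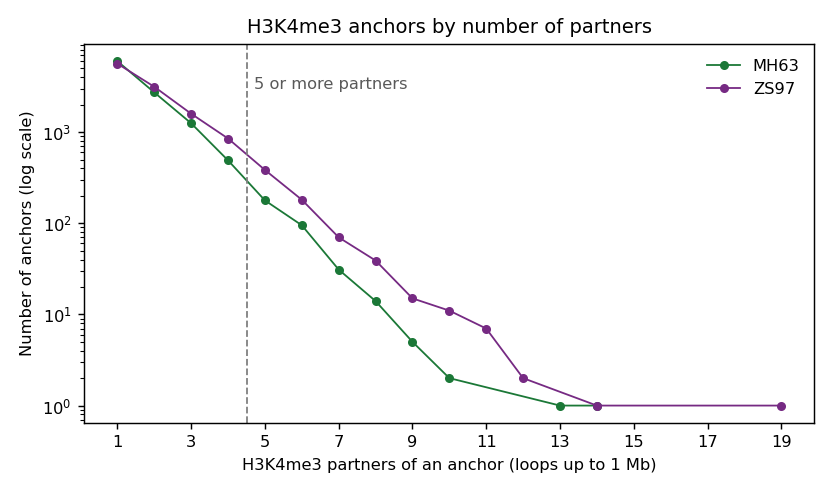
Number of H3K4me3 anchors (log scale) by the number of their partners within 1 Mb in MH63 and ZS97. To the right of the dashed line are the hubs, 327 in MH63 and 711 in ZS97, and the longest tails end at 14 partners in MH63 and 19 in ZS97.

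These PETs, widths and spans come from the same H3K4me3 lists as the rule and are given as a description. Just inside the threshold, hubs with 5 partners had a median width of 2077.5 bp and a median sum of 29 PETs in MH63, and anchors with 4 partners, just outside it, 1908 bp and 23 PETs. In ZS97 the medians were 2147 bp and 32 PETs with 5 partners, and 1909 bp and 24 PETs with 4. Over all hubs, summed PETs had a median of 34 in MH63 (range 20 to 129), against 7 at anchors with 1 to 4 partners, and a median of 37 in ZS97 (20 to 209), against 9. Most of that difference is fixed by the rule, since each partner adds at least 4 PETs.

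Hub anchors were also broad. Their median width was 2285 bp in MH63 (95% interval of the median 2190 to 2430 bp), against 1325.5 bp (1314 to 1338 bp) at anchors with 1 to 4 partners. In ZS97 the median was 2276 bp (2204 to 2362 bp) at hubs, against 1495 bp (1483 to 1506 bp). Widths of single hubs lay between 905 and 5732 bp in MH63 and between 930 and 8235 bp in ZS97, and only 6 hubs in MH63 and 9 in ZS97 had been put together from more than 1 interval. The authors set the anchors from peaks of H3K4me3 binding, so the width follows the breadth of the marked region.

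Hubs were few but took part in a sizeable share of the loops. A hub stood at 1 or both ends of 1734 MH63 loops, which were 18.2% of the loops and held 20.1% of the PETs. In ZS97 it was 3713 loops, 30.4% of the loops and 33.1% of the PETs. Counting hubs and their partners together, 15.6% of the anchors in MH63 and 27.4% in ZS97 were a hub or were joined to one. Each hub has at least 5 partners by the rule, so these shares follow in large part from the rule and are a description.

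The loops of a hub mostly spread to both sides. The outermost partners of a hub lay a median of 71.1 kb apart in MH63, against 34.4 kb at anchors with 2 to 4 partners, and 77.3 kb apart in ZS97, against 38.0 kb. All partners lay on one side at 19 MH63 hubs (5.81%), against 39.1% of anchors with 2 to 4 partners, and at 35 ZS97 hubs (4.92%), against 37.9%. These values follow in part from the number of partners itself. The strongest loop of a hub held a median of 27.7% of its PETs in MH63 and 28.6% in ZS97, against 51.3% in MH63 and 51.1% in ZS97 at anchors with 2 to 4 partners. That loop went to the nearest partner at 33.6% of hubs in MH63, against 65.7%, and at 38.7% in ZS97, against 64.2%. Both differences depend on the number of partners too, and so on the rule. Within its reach a hub was joined to a median of 71.4% of all H3K4me3 anchors in MH63 and 66.7% in ZS97, so that hubs skipped some of the anchors they spanned. Such skipping was not particular to hubs, since the median was 66.7% in both varieties at anchors with 2 to 4 partners. Loops with a hub had a median span of 20.6 kb in MH63, against 15.3 kb for loops without one, and of 21.2 kb in ZS97, against 16.0 kb. The longest hub loop reached 979 kb in MH63 and 821 kb in ZS97.

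Partners of a hub were mostly not joined to each other. Of all pairs of partners of a hub, 778 of 4687 (16.6%) were linked by a loop of their own in MH63 and 2256 of 10931 (20.6%) in ZS97. Sparse joining was not particular to hubs, since 21.4% of such pairs were linked at MH63 anchors with 2 to 4 partners and 26.7% at ZS97 ones. At 51 MH63 hubs (15.6%) and 72 ZS97 hubs (10.1%) no pair of partners was linked directly. The same held for 63.7% of MH63 and 56.0% of ZS97 anchors with 2 to 4 partners, which have fewer pairs to link. Partners whose only loop went to the hub made up 20.9% of hub-to-partner links in MH63 and 16.5% in ZS97. At anchors with 2 to 4 partners such links were more frequent, with 28.2% in MH63 and 21.9% in ZS97.

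Many hubs were joined to another hub. This held for 184 of the MH63 hubs, 56.3% (50.9 to 61.5%), and for 477 of the ZS97 hubs, 67.1% (63.6 to 70.4%), against 13.0% of MH63 and 22.9% of ZS97 anchors with 1 to 4 partners, which have fewer loops by the rule. The links ran through 157 hub-to-hub loops in MH63 and 508 in ZS97. The share depended on the settings, with 33.0% in MH63 and 48.7% in ZS97 for loops of at least 5 PETs, 18.2% in MH63 and 40.3% in ZS97 for at least 6 PETs, and 37.6% in MH63 and 54.4% in ZS97 when hubs needed 6 or more partners. Linked hubs formed 63 groups in MH63, of which 41 were pairs, and 143 groups in ZS97, of which 72 were pairs. The biggest group in MH63 held 12 hubs on chromosome 3 between 36410645 and 36746562, with 39 anchors when partners are counted. The next held 10 hubs on chromosome 2 between 33879691 and 34092907, also with 39 anchors. In ZS97 the biggest group held 18 hubs on chromosome 2 between 33757865 and 34630797, with 54 anchors, followed by 17 hubs on chromosome 7 between 21106262 and 21425133, with 40 anchors. Positions are given on the assembly of each variety, whose version is not given in the sources used here, and positions in one genome were not compared with those in the other.

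Hubs lay on every chromosome, at unequal rates. The share of anchors that were hubs ranged in MH63 between 0.277% on chromosome 11, with a single hub, and 4.20% on chromosome 10. In ZS97 it ranged between 2.66% on chromosome 11, with 11 hubs, and 8.65% on chromosome 3, with 150. Chromosome 11 thus had the lowest hub share in both varieties, and the share was lower in MH63 than in ZS97 on 12 of 12 chromosomes. Between chromosomes next to each other in the order of these shares, the intervals overlapped throughout in both varieties. Farther apart in the order some did not overlap. Examples are chromosomes 11 (0.0489 to 1.55%) and 2 (3.17 to 5.21%) in MH63, and chromosomes 1 (4.33 to 6.35%) and 3 (7.42 to 10.1%) in ZS97.

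**Figure D2:**
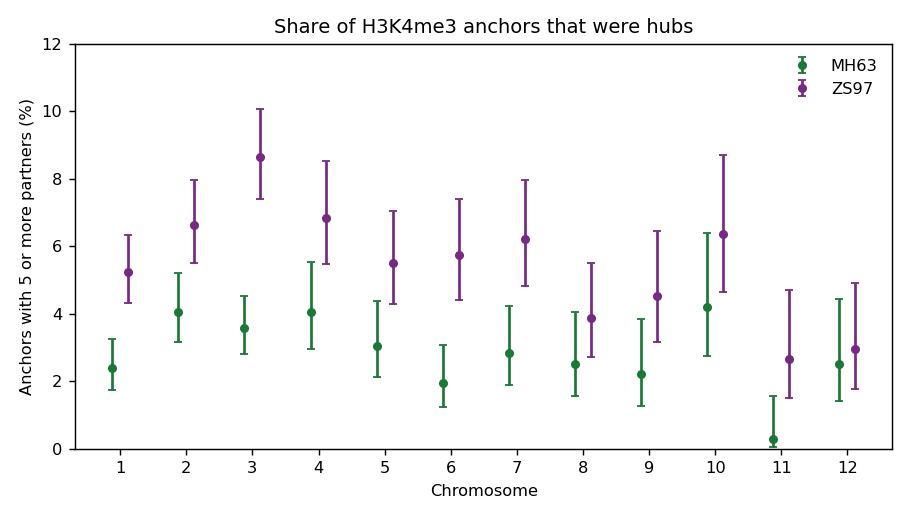
Share of the H3K4me3 anchors of each chromosome that had 5 or more partners, in percent, with Wilson 95% intervals, in MH63 and ZS97. Chromosome 11 is lowest in both, at 0.277% in MH63 and 2.66% in ZS97, and the MH63 point lies below the ZS97 point on each chromosome.

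Within chromosomes, hubs were found more often near the ends. Within 2 Mb of the outermost anchor of any list lay 124 MH63 hubs, 37.9% (32.8 to 43.3%), against 21.8% (21.0 to 22.6%) of anchors with 1 to 4 partners. In ZS97 it was 224 hubs, 31.5% (28.2 to 35.0%), against 21.0% (20.3 to 21.8%). The intervals did not overlap in either variety. The 1 Mb windows richest in hubs in MH63 were 33 to 34 Mb on chromosome 2, with 12 hubs among 85 anchors, and 36 to 37 Mb on chromosome 3, with 12 among 81. In ZS97 they were 34 to 35 Mb on chromosome 2, with 23 hubs among 104 anchors, and 21 to 22 Mb on chromosome 7, with 22 among 87. No hub lay in 220 of the 351 MH63 windows that held an anchor, nor in 170 of 348 in ZS97.

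RNAPII anchors come from other libraries than those that chose the hubs, and hubs carried one more often than other H3K4me3 anchors did. An RNAPII anchor that overlapped several H3K4me3 anchors was counted at each of them. Of the MH63 hubs, 184 of 327 shared at least 1 bp with an RNAPII anchor, or 56.3% (50.9 to 61.5%), against 30.3% (29.4 to 31.2%) of anchors with 1 to 4 partners and 31.0% of all H3K4me3 anchors. Of the ZS97 hubs, 440 of 711 overlapped one, or 61.9% (58.3 to 65.4%), against 28.1% (27.2 to 28.9%) of anchors with 1 to 4 partners and 30.0% of all anchors. The number 184 in MH63 also counts the hubs joined to another hub, but only 96 hubs were both. By chromosome, the RNAPII share was higher in hubs than in the other anchors on 11 of 12 chromosomes in MH63, the exception being chromosome 11 with its 1 hub, and on 12 of 12 in ZS97.

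The RNAPII share was already higher with each added partner below the threshold. In MH63 it was 25.0% with 1 partner, 33.2% with 2, 40.1% with 3 and 53.6% with 4, and among hubs 52.2% with 5, 58.9% with 6, 67.7% with 7 and 60.9% with 8 or more. In ZS97 it was 20.7% with 1 partner, 30.3% with 2, 39.3% with 3 and 47.6% with 4, and among hubs 58.1% with 5, 63.0% with 6, 68.6% with 7 and 72.4% with 8 or more. In MH63 the intervals of all classes from 4 partners upwards overlapped. In ZS97 hubs with 5 partners stood above anchors with 4, with intervals of 53.1 to 62.9% and 44.3 to 51.0%, while the hub classes from 5 partners upwards overlapped with their next neighbours.

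**Figure D3:**
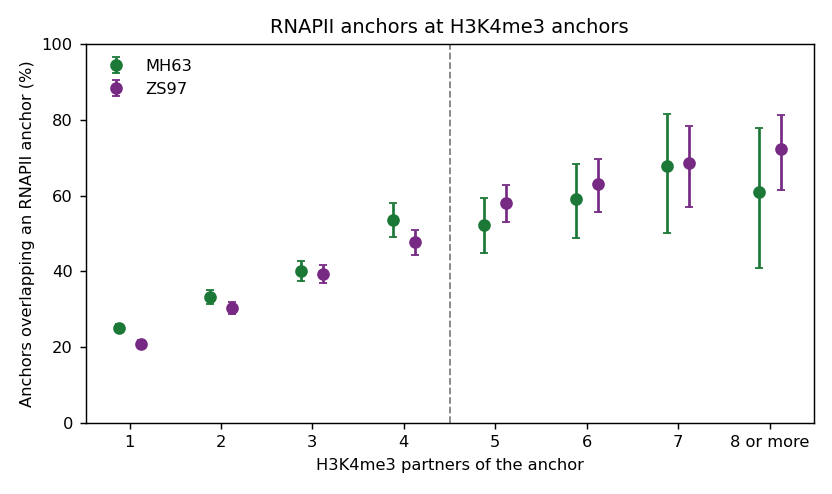
Share of H3K4me3 anchors that overlapped an RNAPII anchor, in percent with Wilson 95% intervals, by number of H3K4me3 partners in MH63 and ZS97. The dashed line marks the hub threshold, and shares climb from 25.0% in MH63 and 20.7% in ZS97 at 1 partner to 60.9% in MH63 and 72.4% in ZS97 at 8 or more.

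A wide anchor has more room for an overlap, so width moves with this result and the share was also taken within classes of width. In MH63 anchors under 1500 bp, 52.6% of hubs overlapped RNAPII (37.3 to 67.5%, 38 hubs), against 23.6% of anchors with 1 to 4 partners. Between 1500 and 2000 bp it was 43.9% of hubs (32.6 to 55.9%), against 37.4% (35.5 to 39.5%), with overlapping intervals. Between 2000 and 3000 bp it was 56.4% of hubs (48.4 to 64.1%), against 46.7% (44.0 to 49.4%), with intervals that again overlapped, and at 3000 bp or wider 68.9% (57.7 to 78.3%), against 51.5% (45.6 to 57.3%). In MH63 the gap of 26.0 points over all widths was therefore smaller in the 3 wider classes, where the hub share was 6.50 to 17.4 points higher. In ZS97 the gap remained between 22.7 and 29.0 points in each class, with 45.2% of hubs under 1500 bp overlapping RNAPII, against 21.0% of the others, and 67.7% of hubs at 3000 bp or wider, against 45.0%.

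**Figure D4:**
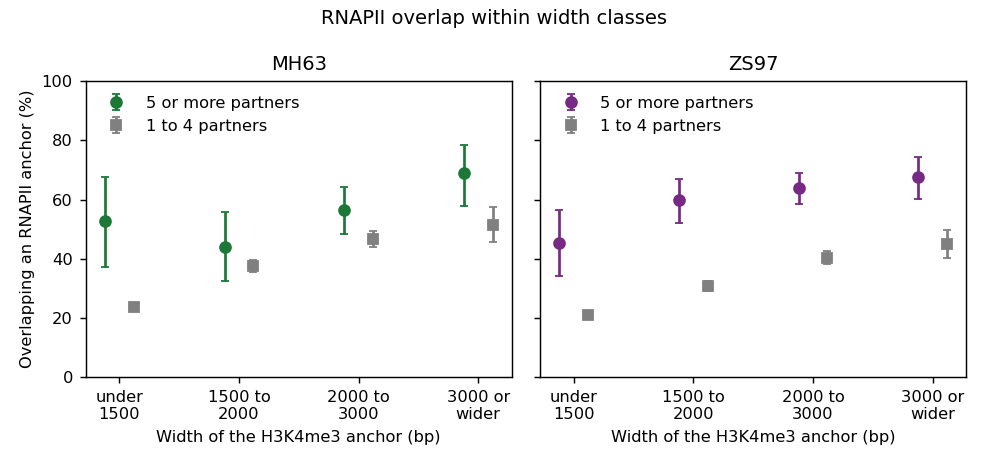
Share of H3K4me3 anchors that overlapped an RNAPII anchor, in percent with Wilson 95% intervals, in 4 classes of anchor width, for hubs and for anchors with 1 to 4 partners in MH63 (left) and ZS97 (right). The hub point is higher in each class, but in MH63 the intervals overlap between 1500 and 2000 bp and between 2000 and 3000 bp.

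The share was also taken by neighbourhood. In the 131 MH63 windows of 1 Mb that held a hub, 32.2% (31.1 to 33.3%) of the anchors with 1 to 4 partners overlapped RNAPII, and in the 178 such ZS97 windows 30.3% (29.4 to 31.4%) did, both well under the hub shares. Hubs had the higher RNAPII share in 90 of the MH63 windows and the lower in 38, and in ZS97 the higher in 138 and the lower in 35. Partners of hubs that were no hubs themselves overlapped RNAPII in 35.1% (32.6 to 37.7%) of cases in MH63 and 35.3% (33.4 to 37.1%) in ZS97, above the 29.5% (28.6 to 30.5%) in MH63 and 25.9% (25.0 to 26.9%) in ZS97 of anchors with no link to a hub. Near the chromosome ends, within 2 Mb, 51.6% of MH63 hubs overlapped RNAPII, against 26.9% of the others, and 55.4% of ZS97 hubs, against 24.1%. Farther in, the shares were 59.1% of MH63 hubs, against 31.2%, and 64.9% of ZS97 hubs, against 29.1%. The position at the ends therefore did not go with a higher RNAPII share. The part of anchor width, of local anchor density and of PET counts in these differences was not tested beyond the classes given.

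Joining to another hub had no common relation with RNAPII in the 2 varieties. Hubs joined to another hub overlapped RNAPII in 52.2% (45.0 to 59.3%) of cases in MH63, against 61.5% (53.4 to 69.1%) of hubs joined to none. In ZS97 the order was the other way, with 65.6% (61.2 to 69.7%) of joined hubs, against 54.3% (47.9 to 60.5%) of hubs joined to none. The intervals overlapped in MH63 and did not in ZS97, and the difference between the varieties was not tested.

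At hubs with an RNAPII anchor, that anchor often had several RNAPII partners of its own. The median was 5 RNAPII partners in MH63 (95% interval 4 to 6, 184 hubs), against 4 (4 to 4) at other anchors with RNAPII, and 4 in ZS97 (4 to 5, 440 hubs), against 3 (3 to 3). The RNAPII list begins at 4 PETs per loop in MH63 and at 6 in ZS97. For ZS97 this start is not the cutoff that the library table of the study lists. When both lists were begun at 6, the MH63 medians were 3 at hubs and 3 at the other anchors, so the difference in MH63 was not seen without the weakest RNAPII loops. RNAPII partners numbering 10 or more were found at 38 MH63 hubs, 11.6%, against 6.21% of anchors with 1 to 4 partners, and at 98 ZS97 hubs, 13.8%, against 3.16%. H3K4me3 anchors that overlap the same RNAPII anchor each take all its partners, so these are not numbers of separate RNAPII anchors. For example, the ZS97 hubs starting at 8732846 and 8740494 on chromosome 3 both had 22 RNAPII partners and 939 RNAPII PETs. Just outside the threshold the varieties differed. MH63 anchors with 4 partners had a median of 6 RNAPII partners (5 to 7) where RNAPII was present, and 14.7% of them had 10 or more, both above the hub values, though the intervals of the medians overlapped. ZS97 anchors with 4 partners had a median of 3 (3 to 4) and 5.88% with 10 or more, both below the hub values. In MH63 the higher RNAPII partner numbers were therefore not particular to hubs. At least as many RNAPII as H3K4me3 partners were found at 88 of the 327 MH63 hubs and 188 of the 711 ZS97 hubs. This was not counted at other anchors, so it cannot be called particular to hubs.

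A sizeable minority of hubs had no RNAPII anchor at all, 143 of 327 in MH63 and 271 of 711 in ZS97. Lack of RNAPII was nevertheless rarer at hubs than over all H3K4me3 anchors. An RNAPII anchor was present at 56.3% of MH63 hubs, against 31.0% of all anchors, and at 61.9% of ZS97 hubs, against 30.0%. The hubs without RNAPII had a median of 5 H3K4me3 partners in both varieties, as had the hubs with RNAPII. Their median width was 2164 bp (2040 to 2302 bp) in MH63, against 2432 bp (2266 to 2547 bp) at hubs with RNAPII, and 2187 bp (2073 to 2342 bp) in ZS97, against 2306 bp (2236 to 2429 bp). Their median summed PETs were 32 in MH63, against 35, and 34 in ZS97, against 38. The intervals of width overlapped in both varieties, and those of summed PETs overlapped in MH63 (31 to 35, against 33 to 37) but not in ZS97 (32 to 35, against 37 to 39).

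The hub loops themselves were shared with the RNAPII list more often than other loops. A single RNAPII loop was counted for every H3K4me3 loop whose anchors both overlapped its own. An RNAPII loop joined the same pair of anchors for 302 of 1734 MH63 hub loops, 17.4% (15.7 to 19.3%), against 11.7% (11.0 to 12.5%) of loops without a hub and 12.8% of all loops. It did so for 773 of 3713 ZS97 hub loops, 20.8% (19.5 to 22.2%), against 11.0% (10.4 to 11.7%) and 14.0% of all loops. Among loops between 2 hubs the share was 21.7% (15.9 to 28.7%) in MH63 and 28.5% (24.8 to 32.6%) in ZS97.

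That difference went together with how often both ends carried an RNAPII anchor, which was so for 23.2% of MH63 hub loops, against 14.9% of loops without a hub, and for 29.0% of ZS97 hub loops, against 14.9%. Where both ends carried one, hub loops were counted as shared no more often than others. The share was then 74.9% (70.5 to 78.9%) in MH63, against 78.8% (76.4 to 81.1%), and 71.8% (69.1 to 74.4%) in ZS97, against 73.9% (71.4 to 76.2%), with overlapping intervals in both. These shares also include loops whose ends overlapped only the same RNAPII anchor. Such loops could not be counted as shared, and their number among hub loops and others was not taken. Hub loops were somewhat stronger, with a mean of 6.31 PETs in MH63, against 5.55 for loops without a hub, and 6.80 in ZS97, against 6.01, while the median was 5 for both kinds in both varieties. Among the weakest loops, of 4 PETs, 12.5% of MH63 hub loops were shared (10.1 to 15.4%), against 9.22% (8.29 to 10.2%), and 16.7% of ZS97 hub loops (14.7 to 18.9%), against 7.85% (6.98 to 8.81%). Among loops of 10 or more PETs it was 23.2% of MH63 hub loops (18.0 to 29.4%), against 22.9% (19.3 to 27.0%), a difference within the intervals, and 33.2% of ZS97 hub loops (29.4 to 37.1%), against 23.7% (20.8 to 26.8%).

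H3K9me2 was rare at hubs. In MH63 4 hubs overlapped an H3K9me2 anchor, or 1.22% (0.477 to 3.10%), against 1.74% (1.51 to 2.01%) of anchors with 1 to 4 partners and 1.74% of all anchors. In ZS97 8 hubs did, or 1.13% (0.571 to 2.20%), against 1.51% (1.30 to 1.75%) and 1.50% of all anchors. The intervals of hubs and other anchors overlapped in both varieties, so no difference was detectable with so few hubs. When only loops of at least 6 PETs were used the MH63 order turned round, on 1 of 33 hubs. Lying between the ends of an H3K9me2 loop was less frequent at hubs, with 16 in MH63 or 4.89% (3.03 to 7.80%), against 12.9% (12.3 to 13.6%), and 73 in ZS97 or 10.3% (8.25 to 12.7%), against 16.7% (16.0 to 17.4%). More than 2 Mb away from the outermost anchors the shares were 4.93% of MH63 hubs (2.70 to 8.83%), against 15.0% (14.3 to 15.8%), and 11.1% of ZS97 hubs (8.60 to 14.2%), against 19.3% (18.5 to 20.1%).

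The hub with the most partners lay on chromosome 7 in both varieties. In MH63 it covered chr7:22208745-22214471 and had 14 partners, 9 towards lower and 5 towards higher coordinates, with 129 PETs in all. Its strongest loop had 29 PETs and went to a hub 19.8 kb away on the higher side, followed by 17 PETs at -14.2 kb and 13 PETs at -10.9 kb, and its weakest, of 4 PETs, reached -979 kb. It lay inside an RNAPII anchor of 14.3 kb that had 20 RNAPII partners and 542 PETs, of which 240 PETs went to the partner at -18.3 kb and 89 to the one at 15.2 kb. Of its 14 partners 9 carried an RNAPII anchor, and 6 of its loops were also RNAPII loops. These counts repeat some RNAPII anchors and loops. The RNAPII partner at -18.3 kb overlapped the H3K4me3 partners at both -21.0 and -14.2 kb. The H3K4me3 partner at -6.68 kb lay inside the RNAPII anchor of the hub itself.

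In ZS97 the hub with the most partners covered chr7:21294189-21300575 and had 19 partners, 8 towards lower and 11 towards higher coordinates, with 209 PETs. Its strongest loop had 40 PETs and went to a hub 19.9 kb away on the higher side, followed by 36 PETs at -14.0 kb and 17 PETs at -10.6 kb. Its RNAPII anchor of 14.1 kb had 21 RNAPII partners and 785 PETs, of which 329 PETs went to the partner at -18.2 kb and 115 to the one at 15.3 kb. Of its 19 partners 10 were hubs themselves and 13 carried an RNAPII anchor, and 11 of its loops were also RNAPII loops. Here too RNAPII anchors were counted repeatedly, since the RNAPII partner at 106 kb overlapped the H3K4me3 partners at 103 and 110 kb. The hub lay between the ends of an H3K9me2 loop, and the partner at 19.9 kb overlapped an H3K9me2 anchor. Both hubs also had the highest summed PET count of their variety.

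The distances from these hubs to their partners were alike in the 2 varieties. Of the 14 MH63 partners 12 had a ZS97 partner at the same signed distance to within 0.5 kb, the largest gap being 0.269 kb, and of the 20 RNAPII partners 11 had one, with a largest gap of 0.393 kb. This likeness was noticed in the values and then counted for all pairs made of one of the 6 most-joined hubs in MH63 and one of the 6 in ZS97. Among the 27 pairs on different chromosomes at most 4 partners matched, with a median of 1. Among the 9 pairs on the same chromosome 1 other stood out, with 8 matches between the second MH63 hub, with 13 partners, and the third ZS97 hub, with 12, both on chromosome 2. The genomes were not aligned, and whether these are the same loci was not determined.

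**Figure D5:**
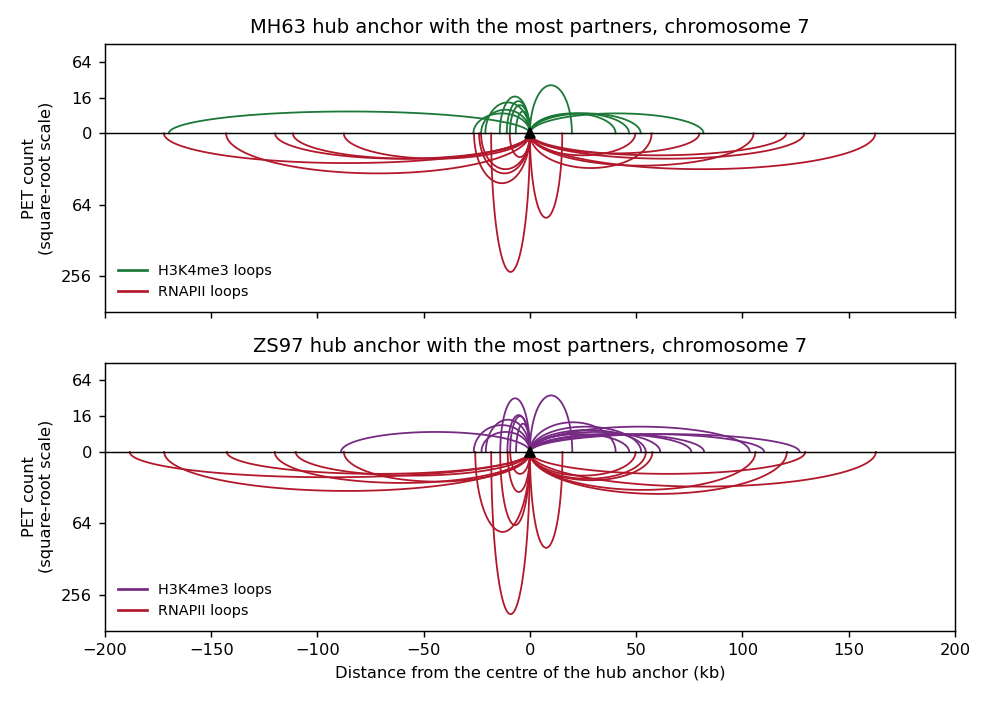
Loops of the hub with the most partners in MH63 (top) and in ZS97 (bottom), both on chromosome 7, by distance from the hub centre in kb. Arcs above the line are H3K4me3 loops and arcs below are RNAPII loops, the height gives the PET count on a square-root scale, and loops beyond 200 kb (1 H3K4me3 and 2 RNAPII loops in MH63, 2 RNAPII loops in ZS97) are not drawn. The arcs fall at similar distances, with the strongest H3K4me3 loop at 19.8 kb in MH63 and 19.9 kb in ZS97.

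That second MH63 hub, chr2:33986716-33989837, had 107 PETs over 13 partners and no RNAPII anchor, although 7 of its partners carried one and 5 were hubs. Its strongest loops had 18 PETs at 9.78 kb and 17 at 15.7 kb. The third ZS97 hub, chr2:34603438-34606829, had 137 PETs over 12 partners, 7 of them hubs, with 42 PETs at 9.77 kb and 15 at 15.7 kb. It overlapped a small RNAPII anchor of 0.837 kb with 1 RNAPII partner and 6 PETs, which was the lowest count that the ZS97 list holds. Its neighbour at -34.5 kb, chr2:34568175-34573060, was the fifth hub of ZS97, with 11 partners and 109 PETs, and had 1 RNAPII partner with 7 PETs.

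Several of the most-joined hubs had no RNAPII anchor. In MH63 these were 4 of the first 6, the second hub described above, chr2:1029595-1032380 with 10 partners and 73 PETs, chr2:34090432-34092907 with 10 partners and 47 PETs, and chr1:141200-144132 with 9 partners and 75 PETs. At chr2:34090432-34092907 none of the 10 partners carried RNAPII either, and its loops were all weak, between 4 and 7 PETs. In ZS97 they were 3 of the first 6, namely chr5:24561918-24564831 with 14 partners and 91 PETs, chr1:171786-174360 with 12 partners and 90 PETs, and chr1:35600193-35603903 with 11 partners and 98 PETs. The hub on chromosome 5 had 7 partners on either side, up to 86.2 kb away, and 0 of its 14 partners overlapped an RNAPII anchor, while only 1 of them was a hub. The hub chr1:171786-174360 was joined to 6 other hubs, and 5 of its 12 partners carried RNAPII.

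The sixth MH63 hub, chr3:6207709-6212191, was of the other kind. It had 9 partners and 71 PETs, none of its partners was a hub, and its RNAPII anchor of 11.7 kb had 12 RNAPII partners and 231 PETs. Its strongest H3K4me3 loop, with 20 PETs, went to the nearest partner at -7.45 kb, and 4 of its loops were also RNAPII loops.

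The hubs with the most RNAPII partners had fewer H3K4me3 than RNAPII partners. In MH63 this was chr3:32480662-32482867, with 5 H3K4me3 partners and 35 PETs but 32 RNAPII partners and 434 RNAPII PETs from an RNAPII anchor of 13.7 kb. In ZS97 it was chr7:21399737-21401845, with 8 H3K4me3 partners and 62 PETs, 23 RNAPII partners and 509 RNAPII PETs, and it was itself a partner of the 19-partner hub at a distance of 103 kb. The widest hubs were chr2:34494103-34499834 in MH63, with 6 partners, 47 PETs and no RNAPII anchor, and chr1:23934401-23942635 in ZS97, with 8 partners, 57 PETs and 9 RNAPII partners with 84 PETs. The width of a hub and the number of its RNAPII partners therefore did not peak at the same place in either variety.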

How the data were processed

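ChIA-PET loops of MH63 and ZS97 leaves were taken from the deposited lists, 1 per variety and antibody. The authors mapped the reads to the genome of each variety, downloaded from the Rice Information GateWay, and called loops with ChIA-PET Tool (version not given in the sources used here) between anchors set from slightly extended binding peaks. They pooled both replicates and kept loops with a false discovery rate below 0.05 and a minimum PET count chosen by sequencing depth. Each deposited count is the number of PETs of a loop and is not normalized. The p-value and false discovery rate columns that the authors deposited were not used.

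Anchors were joined, partners counted and overlaps taken with Python 3.11.15, numpy 2.4.6, pandas 2.3.3 and scipy 1.17.1, and figures drawn with matplotlib 3.10.9. RNAPII partners were counted in loops up to 1 Mb. Shares have Wilson 95% intervals and medians order-statistic intervals, for counting error only. The procedure was tested on simulated data. Regions described singly were, per variety, the 6 hubs with the most partners (ties by summed PETs), the highest summed PET count, the widest hub and the one with the most RNAPII partners. Alternatives changed the minimum PET count, the longest loop, the joining of intervals, the partner threshold, the overlap rule, the RNAPII loops used and the anchor width. The hubs, measures and alternatives were chosen with earlier results of these data known. No genome of the build was used, so neither genes nor sequences are named.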

Additional observations from a re-analysis of the deposited data

How the results depend on the processing

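Alternative settings gave 136 results. For the number of hubs, RNAPII overlap, shared loops and H3K9me2 overlap, 50 stayed close to the main value, 31 moved and 1 turned round. For width, RNAPII partners and joining to another hub, 34 stayed close and 20 moved. Close means within the interval of the main value, or a similar number of hubs. The hubs kept the higher RNAPII overlap than the other anchors under 13 of 13 alternatives in each variety, and the higher share of loops shared with RNAPII under 10 of 10. The alternative with RNAPII loops of at least 6 PETs leaves ZS97 as it is because that list begins there, and so says nothing on its stability. The number of hubs depended most on the settings. With at least 5 PETs per loop it was 88 in MH63 and 234 in ZS97, with at least 6 PETs 33 in MH63 and 77 in ZS97, with 4 or more partners 816 in MH63 and 1561 in ZS97, and with 6 or more partners 149 in MH63 and 327 in ZS97.

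The RNAPII overlap of MH63 hubs was 72.7% with at least 5 PETs, 66.7% with at least 6, 49.8% with RNAPII loops of at least 6 PETs, 41.9% with 50% of the anchor covered, 63.3% within 1 kb and 46.5% among anchors 1 to 2 kb wide. The other MH63 anchors had 34.2%, 38.0%, 26.4%, 23.9%, 38.2% and 30.3% under these settings, in the same order. In ZS97 the hub share was 68.8% with at least 6 PETs, 54.1% with 4 or more partners, 66.4% with 6 or more, 51.5% with 50% covered, 67.5% within 1 kb and 55.2% among anchors 1 to 2 kb wide. The other ZS97 anchors had 36.5%, 26.5%, 29.1%, 22.4%, 32.7% and 25.6%, in the same order. The share of hub loops also found with RNAPII was 22.4% in MH63 and 23.2% in ZS97 with at least 5 PETs, 23.6% in MH63 and 25.1% in ZS97 with at least 6, 15.4% in MH63 with RNAPII loops of at least 6 PETs, and 18.4% in ZS97 with 4 or more partners. For loops without a hub these shares were 14.2%, 14.9%, 16.9%, 17.7%, 10.5% and 9.57%, in the same order.

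The H3K9me2 overlap of MH63 hubs was 3.03% with at least 6 PETs, where 1 of 33 hubs overlapped, against 1.55% of other anchors, the reverse of the main order, and 0.306% with 50% covered. In ZS97 it was 0.427% with at least 5 PETs, 2.39% within 1 kb, 0 of 77 hubs with at least 6 PETs (Wilson upper limit 4.75%), and 0 of 711 with 50% covered (upper limit 0.537%). The other ZS97 anchors had 1.51%, 2.86%, 1.22% and 0.598% under these settings, in the same order. Counting RNAPII partners over loops of any span, an alternative added after seeing the data, gave a median of 5 at hubs and 5 at other anchors in MH63, and of 5 and 3 in ZS97. The causes of these shifts were not tested. No paired analysis was possible because the lists pool both replicates, and leaving out a replicate was not possible for the same reason. PET counts limit the calls, since a hub with 5 partners of 4 PETs each loses partners with the loss of single PETs.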
